A study of Homo sapiens with 9 samples.

Results

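The genes of the collagen chains, the laminin subunits and the integrin subunits were examined in FaDu cells, an established line of head and neck squamous cell carcinoma (HNSCC), after inhibition of CDK7. CDK7 activates the cyclin-dependent kinases of the cell cycle and, as a subunit of TFIIH, phosphorylates RNA polymerase II. Members were the protein-coding genes whose symbol is a numbered collagen chain, a numbered laminin alpha, beta or gamma subunit, or a numbered integrin alpha or beta subunit, together with ITGAV. The rule found 76 of the 58929 genes in the table, of which 44 were collagen, 12 laminin and 20 integrin genes. Of these, 47 passed the filter on low counts and were tested (21 collagen, 10 laminin and 16 integrin genes) and 29 were not. Integrin alpha genes named by a letter other than V were left out by the rule and were counted as a companion list.

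Poly(A) RNA was sequenced from 9 libraries of wild-type FaDu cells in 3 groups of 3, all labelled as 1 batch: a vehicle group given DMSO and a group for each inhibitor, with samuraciclib and with YKL-5-124 both dosed at 250 nM. Samuraciclib binds CDK7 reversibly at the ATP site, and YKL-5-124 binds it covalently. The treatment protocol in the labels gives 48 h and the series design gives 72 h, the same for all groups, and since FaDu is 1 cell line, the 3 libraries of a group are cultures of 1 genotype. The libraries held 18096180 to 28018126 counts. In DMSO 3, samuraciclib 2 and YKL-5-124 2, RN7SL2, a 7SL RNA gene, stood at 24.9 to 59.3 CPM, against 696 to 981 CPM in the other 6 (CPM, counts after scaling by TMM-adjusted library sizes). Of 8 squamous epithelial markers all 8 were tested, with a summed level of 4904 to 6047 CPM over the libraries. None of 7 fibroblast markers and none of 5 leukocyte markers passed the filter, and their sums did not exceed 0.320 and 0.468 CPM. Of 5 endothelial markers, CDH5 stood at 30.0, 21.1 and 26.4 CPM in DMSO, samuraciclib and YKL-5-124, VWF and PECAM1 were at or below about 1 CPM, and KDR and TEK had no count. The squamous sum was 4904 to 5166 CPM in DMSO, 5795 to 6047 CPM with samuraciclib and 5214 to 5576 CPM with YKL-5-124, and its part in the results was not tested.

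Collagens are trimers of alpha chains that give tissues their tensile strength, and type IV collagen forms the mesh of basement membranes. Laminins are trimers of an alpha, a beta and a gamma subunit, and many of them polymerize into the sheet to which epithelial cells attach. Integrins are heterodimers of an alpha and a beta subunit that bind these proteins and link them to the cytoskeleton. In stratified epithelia the hemidesmosome joins the integrin of ITGA6 and ITGB4 and the transmembrane collagen COL17A1 to a laminin that contains LAMA3 and LAMB3, and anchoring fibrils of COL7A1 extend from there into the underlying tissue.

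Promoter sequences are shown for genes on which the comparisons turned. COL4A1 and COL4A2 are transcribed away from each other from starts 127 bases apart, and COL27A1 had the steepest fall of the well expressed members with YKL-5-124. ITGA5, ITGB6 and ITGB8 were called higher with samuraciclib and were called lower with YKL-5-124 than with samuraciclib. The first sequence is the 126 bases between the RefSeq starts of COL4A1 and COL4A2 at chr13:110307158-110307283, on the strand of COL4A2. The model of COL4A1 in the deposited table ends at 110307233, inside this interval. The deposited model of COL4A2 begins at 110305812, so the whole interval lies within that model. The others are the 250 bases before the RefSeq start, each on the strand of its gene, of COL27A1 at chr9:114155287-114155536 (plus strand), ITGA5 at chr12:54419267-54419516 (minus strand), ITGB6 at chr2:160200273-160200522 (minus strand) and ITGB8 at chr7:20330650-20330899 (plus strand). All are from RefSeq, GRCh38.p14, 5′ to 3′. The deposited models of ITGA5, ITGB6 and ITGB8 begin inside their windows, at 54419460, 160200313 and 20330702. Part of each of these windows thus lies within the model. Capitals mark matches on either strand to the letters of the CCAAT box as its name spells them, of the SP1 motif written GGGCGG, of the TEAD motif written GGAATG or of the AP-1 motif written TGANTCA.
COL4A1-COL4A2: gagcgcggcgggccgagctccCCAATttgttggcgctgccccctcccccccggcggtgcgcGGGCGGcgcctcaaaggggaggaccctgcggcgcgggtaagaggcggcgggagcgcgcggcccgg
COL27A1: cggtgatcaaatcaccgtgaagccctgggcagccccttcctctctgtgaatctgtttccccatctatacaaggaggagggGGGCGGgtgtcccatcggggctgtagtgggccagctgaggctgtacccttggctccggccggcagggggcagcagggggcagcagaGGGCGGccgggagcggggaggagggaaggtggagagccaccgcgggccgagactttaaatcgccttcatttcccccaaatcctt
ITGA5: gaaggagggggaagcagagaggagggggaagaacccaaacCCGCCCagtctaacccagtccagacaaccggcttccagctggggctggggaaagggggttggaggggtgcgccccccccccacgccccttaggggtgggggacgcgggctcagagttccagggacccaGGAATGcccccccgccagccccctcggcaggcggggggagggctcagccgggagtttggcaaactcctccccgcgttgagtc
ITGB6: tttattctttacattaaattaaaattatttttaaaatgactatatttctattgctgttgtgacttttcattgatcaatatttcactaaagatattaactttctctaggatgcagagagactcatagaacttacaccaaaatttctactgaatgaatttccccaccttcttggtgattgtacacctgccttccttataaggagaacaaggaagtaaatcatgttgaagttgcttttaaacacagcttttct
ITGB8: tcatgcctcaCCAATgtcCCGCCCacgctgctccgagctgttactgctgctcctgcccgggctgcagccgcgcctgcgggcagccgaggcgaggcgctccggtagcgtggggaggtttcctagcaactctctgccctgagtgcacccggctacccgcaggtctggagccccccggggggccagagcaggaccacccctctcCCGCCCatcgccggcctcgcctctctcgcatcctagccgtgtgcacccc

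The interval between COL4A1 and COL4A2 held 1 CCAAT box and 1 SP1 match, and the window of COL27A1 held 2 SP1 matches. ITGB8 had 1 CCAAT box and 2 SP1 matches, ITGA5 had 1 SP1 and 1 TEAD match, and ITGB6 had no match to any of these letters. Of 35116 RefSeq promoter windows of 250 bases, 42.6% held the SP1 letters, 32.0% CCAAT, 11.9% the TEAD letters and 6.57% the AP-1 letters. Of the 76 members, 55 had an entry, and 54.5%, 21.8%, 10.9% and 3.64% of these held the same letters. None of the 4 motifs overlaps another by its letters in the windows shown, and a match says only that the letters are there.

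In DMSO the highest levels per kb of gene model belonged to the subunits of epithelial attachment. ITGB1, the common beta subunit, stood at 109 CPM per kb, ITGB4 at 82.0, ITGA3, whose integrin binds laminin, at 79.0 and LAMB3 at 76.3. COL17A1 stood at 48.7, LAMA5, the alpha subunit of most epithelial basement membranes, at 42.2, LAMC1 at 24.3, LAMB1 at 20.8 and ITGA6 at 20.7 CPM per kb. LAMA3 stood at 4.27 CPM per kb, far below its partner LAMB3. The interstitial collagen genes COL1A2 and COL3A1 did not pass the filter, with 2 and 5 counts in all 9 libraries together, and COL1A1 stood at 4.59 ± 0.750 CPM (SD, n = 3). The scale divides by the length of the whole gene model, so a gene with a long model and short transcripts reads low on it.

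**Figure D1:**
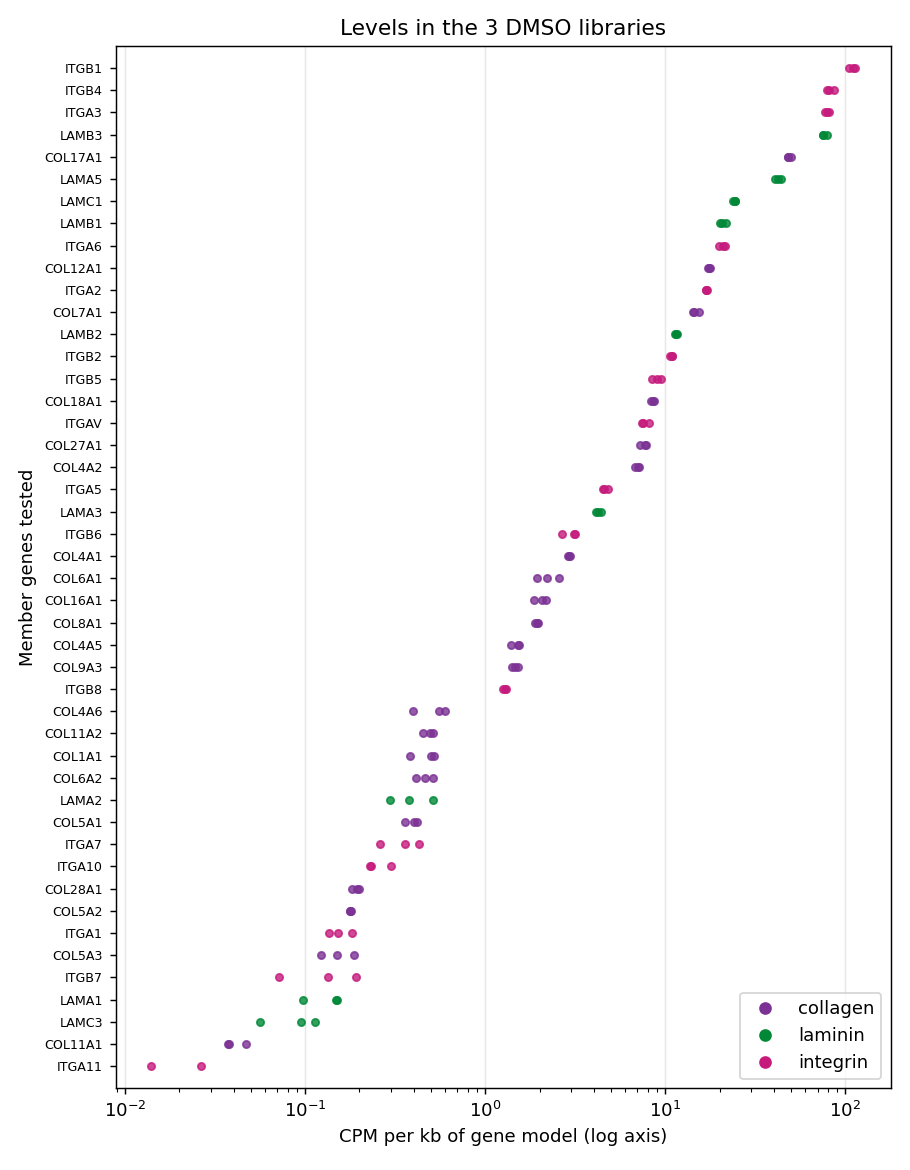
Levels of the tested members, with 1 left out, in the 3 DMSO libraries, in CPM per kb of gene model on a log axis, with 1 point a library and colour for collagen, laminin and integrin genes. ITGB1 (109 CPM per kb) is highest and ITGA11 (0.0134 CPM per kb) lowest, and its 1 library without a count is not drawn.

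The first question was which of these genes differed between each inhibitor and DMSO. A gene was called where its p, adjusted over the 16065 genes that were tested, lay below 0.05 and its log2 fold change was beyond 0.5 in size, in edgeR's quasi-likelihood test with Benjamini-Hochberg adjustment. With YKL-5-124, 6 of 47 members were called higher (12.8%) and 12 lower (25.5%), where 11.9% of all genes tested were called higher and 9.93% lower (21.8% in either direction). With samuraciclib, 9 were called higher (19.1%) and 5 lower (10.6%), where 8.17% of all genes were called higher and 9.55% lower (17.7% in either direction). The median log2 fold change of the members was 0.057 with YKL-5-124 and 0.092 with samuraciclib, and that of all genes was 0.014 and 0.001. Both inhibitors shared the DMSO libraries, so their calls are not independent of each other. COL4A1, COL8A1, COL11A2, ITGAV and ITGA1 rose with both, and COL17A1, COL27A1, ITGB2, ITGA10 and LAMA1 fell with both. No member was called in opposite directions, and 25 of the 47 were called in no comparison. How many of all genes were called with both inhibitors, in opposite directions or in no comparison was not counted.

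The second question was whether the inhibitors differed at the same dose. Between YKL-5-124 and samuraciclib, 4 members were called lower with YKL-5-124 (8.51%, where 2.46% of all genes were), namely COL4A6, ITGA5, ITGB6 and ITGB8. None was called higher (4.46% of all genes, and 6.92% in either direction) by edgeR or DESeq2, while 6 were higher at an unadjusted p below 0.05. The median difference was -0.08 on the log2 scale (all genes 0.01).

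By family, the calls were as follows. Of 21 collagen genes, 4 rose and 6 fell with YKL-5-124 and 4 rose and 2 fell with samuraciclib (19.0% and 28.6%, then 19.0% and 9.52%). Of 10 laminin genes, 4 fell with YKL-5-124 (3 in DESeq2) and 1 with samuraciclib. No laminin gene was called higher with either by edgeR or DESeq2, although 3 were higher at an unadjusted p below 0.05 with YKL-5-124 and 4 with samuraciclib. Of 16 integrin genes, 2 rose and 2 fell with YKL-5-124, and 5 rose and 2 fell with samuraciclib (12.5% each way, then 31.2% and 12.5%). Over all genes tested, the shares higher and lower were 11.9% and 9.93% with YKL-5-124 and 8.17% and 9.55% with samuraciclib, so the share of integrin genes called with YKL-5-124 was close to that of all genes. Summed over its genes, the collagen family stood at 1165 to 1194 CPM in DMSO, 998 to 1043 CPM with samuraciclib and 955 to 1015 CPM with YKL-5-124. The laminin sum was 1713 to 1752 CPM in DMSO, 1928 to 1942 CPM with samuraciclib and 1857 to 2029 CPM with YKL-5-124. The integrin sum was 2513 to 2532, 2377 to 2478 and 2409 to 2430 CPM in the same order. On this TMM scale the collagen and integrin sums were lower and the laminin sum higher in every inhibitor library than in every DMSO library. The sum over all 76 members overlapped between the groups. Scaled by library size alone, the collagen and laminin orders held. The integrin sum was then higher in every YKL-5-124 library than in every DMSO library, while its samuraciclib libraries overlapped DMSO. The sum over all 76 members was then higher in every inhibitor library than in DMSO. The lower integrin sum thus depended on the scaling. LAMA5, LAMB3 and LAMC1, which are among the laminin genes with the highest CPM, were not called. In bulk RNA, fewer cells expressing a gene and less RNA of it per cell cannot be told apart.

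**Figure D2:**
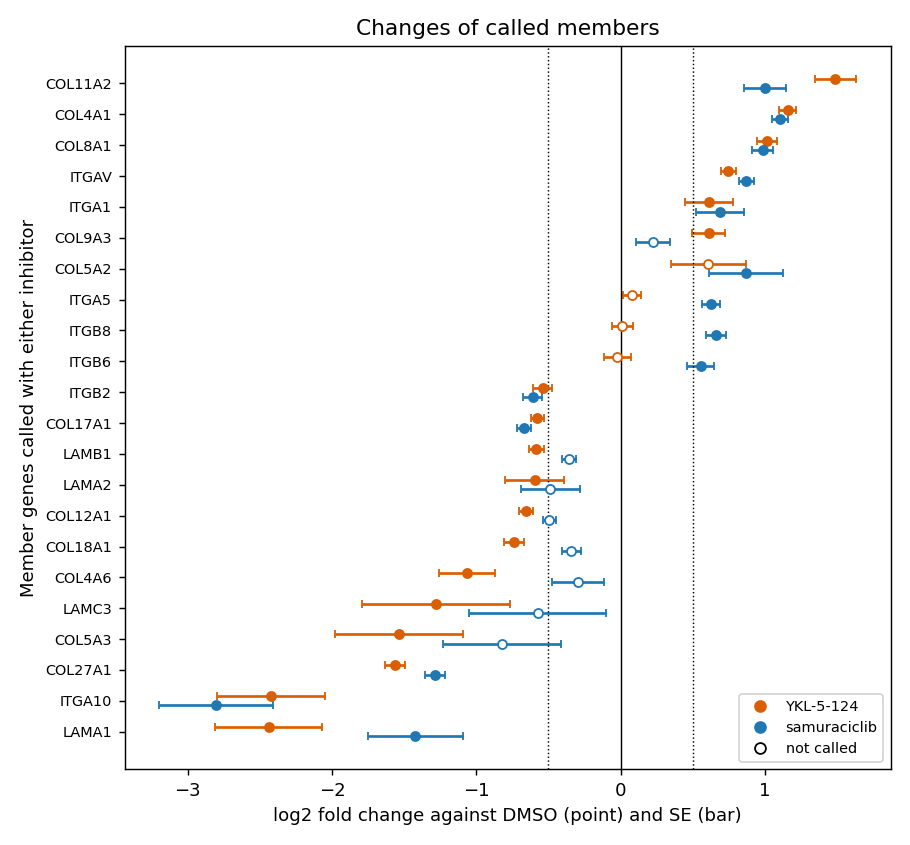
Log2 fold change against DMSO (point) with its SE (bar) of the 22 members called in any comparison, for YKL-5-124 (orange) and samuraciclib (blue), with open points where not called and dotted lines at 0.5 and -0.5. COL11A2, COL4A1 and COL8A1 lie to the right for both inhibitors, and ITGA5, ITGB6 and ITGB8 lie near 0 for YKL-5-124 and beyond 0.5 for samuraciclib.

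COL4A1 and COL4A2 encode the chains of the common type IV collagen, which contains more of the first chain than of the second. COL4A1 (ENSG00000187498, chr13:110148963-110307233, in the table's GRCh38 positions used throughout) stood at 42.8, 42.6 and 43.7 CPM in DMSO, 95.5, 94.4 and 87.7 CPM with samuraciclib and 102, 96.0 and 90.2 CPM with YKL-5-124. Every treated library was above every DMSO library, and the inhibitor groups overlapped. COL4A1 rose 2.23-fold with YKL-5-124 (log2 1.16 ± 0.057, SE, adjusted p = 2.02e-11) and 2.15-fold with samuraciclib (1.10 ± 0.057, adjusted p = 9.88e-11). The 95% interval of the difference between the inhibitors was -0.06 to 0.17 on the log2 scale. COL4A2 (ENSG00000134871, chr13:110305812-110513209) stood at 130.4, 136 and 139 CPM in DMSO, 188, 173 and 186 CPM with samuraciclib and 149.8, 144 and 147 CPM with YKL-5-124. Its samuraciclib libraries were the highest, and those of YKL-5-124 lay between them and DMSO. The log2 fold change was 0.12 ± 0.046 with YKL-5-124 and 0.43 ± 0.046 with samuraciclib, both short of the fold threshold, and -0.31 ± 0.046 between the inhibitors (adjusted p = 9.6e-05).

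The genes on the 2 sides of the shared interval thus differed in the size of their change. Per kb, the ratio of COL4A1 to COL4A2 was 0.430, 0.411 and 0.413 in DMSO, 0.666, 0.714 and 0.617 with samuraciclib and 0.891, 0.872 and 0.804 with YKL-5-124. No pair of groups overlapped. The log2 difference of the ratio was 1.03 between YKL-5-124 and DMSO, 0.67 between samuraciclib and DMSO and 0.36 between the inhibitors, each at the smallest p that an exact two-sided permutation test of 3 against 3 can give (p = 0.1). The models of both genes overlap in the table, but no exon of one overlaps an exon of the other in GENCODE v44.

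**Figure D3:**
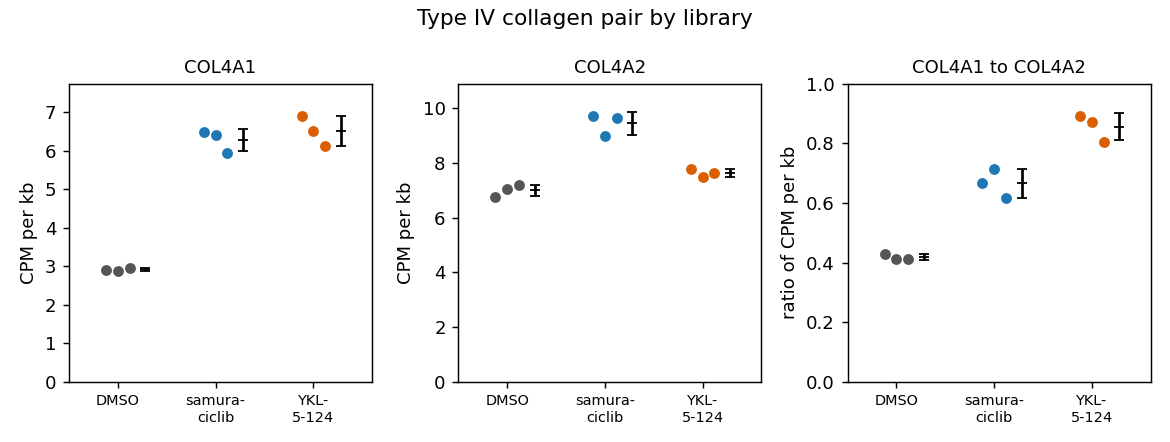
COL4A1 and COL4A2 in CPM per kb and their ratio in each of the 9 libraries (points), with the mean and SD of each group (bars, n = 3). The ratio lies between 0.411 and 0.430 in DMSO, 0.617 and 0.714 with samuraciclib and 0.804 and 0.891 with YKL-5-124.

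Of the other type IV chains, COL4A5 and COL4A6 are also arranged head to head, 380 bases apart on chromosome X. COL4A5 (chrX:108439844-108697545) stood at 18.0, 16.5 and 18.3 CPM in DMSO, 21.6, 27.1 and 22.8 CPM with samuraciclib and 22.7, 22.2 and 18.9 CPM with YKL-5-124. Its treated libraries were above DMSO, but it was not called, at log2 0.27 ± 0.098 with YKL-5-124 and 0.43 ± 0.097 with samuraciclib. COL4A6 (chrX:108155607-108439497) stood at 3.66, 5.54 and 5.12 CPM in DMSO, 4.45, 3.78 and 3.49 CPM with samuraciclib and 2.91, 1.96 and 2.09 CPM with YKL-5-124. The YKL-5-124 libraries were below all others, while DMSO and samuraciclib overlapped. COL4A6 fell 2.09-fold with YKL-5-124 (log2 -1.06 ± 0.19, adjusted p = 0.000173), against -0.30 ± 0.18 with samuraciclib (adjusted p = 0.195), and the log2 difference of YKL-5-124 from samuraciclib was -0.77 ± 0.20 (adjusted p = 0.00847). Without the 3 libraries low in 7SL RNA this last p was 0.0523. The kidney and eye chains COL4A3 and COL4A4 were not tested, with 33 and 82 counts in all libraries.

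Among the other basement membrane and network collagens, COL8A1, a short chain of sheet-like networks around vessels and in the cornea, rose and COL18A1, the parent of endostatin, fell. COL8A1 (chr3:99638475-99799226) stood at 18.3, 17.8 and 18.4 CPM in DMSO, 35.1, 34.6 and 38.2 CPM with samuraciclib and 37.5, 34.7 and 38.0 CPM with YKL-5-124. It rose 2.02-fold with YKL-5-124 (log2 1.01 ± 0.07, adjusted p = 1.6e-09) and 1.98-fold with samuraciclib (0.98 ± 0.071, adjusted p = 4.29e-09), with no overlap with DMSO. The interval of the difference between the inhibitors was -0.11 to 0.17. COL18A1 (chr21:45405137-45513720) stood at 74.2, 70.9 and 72.5 CPM in DMSO, 62.1, 51.9 and 57.7 CPM with samuraciclib and 44.3, 39.8 and 46.5 CPM with YKL-5-124. The groups did not overlap and YKL-5-124 was lowest. COL18A1 fell 1.67-fold with YKL-5-124 (log2 -0.74 ± 0.069, adjusted p = 7.05e-08), against -0.34 ± 0.067 with samuraciclib, where it was not called. SLC19A1, on the other strand, covers 18.5% of its exon bases and had log2 fold changes of -0.19 and -0.10, and without strand reads of the shared part cannot be told apart.

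The fibrillar collagens moved in both directions. COL27A1, expressed in cartilage and epithelia, was the most abundant of them: COL27A1 (chr9:114155560-114312511) stood at 109, 101 and 108 CPM in DMSO, 45.2, 45.3 and 39.7 CPM with samuraciclib and 38.9, 36.0 and 32.7 CPM with YKL-5-124. All treated libraries were below DMSO, and the YKL-5-124 libraries were all below those of samuraciclib. COL27A1 fell 2.95-fold with YKL-5-124 (log2 -1.56 ± 0.068, adjusted p = 4.22e-12) and 2.44-fold with samuraciclib (-1.29 ± 0.067, adjusted p = 1.03e-10). Between the inhibitors the difference was -0.28 ± 0.07, short of the fold threshold (adjusted p = 0.00782). COL11A2, a cartilage chain here at low level, stood at 3.43, 3.04 and 3.31 CPM in DMSO, 6.18, 7.79 and 5.55 CPM with samuraciclib and 9.73, 9.01 and 8.76 CPM with YKL-5-124. It rose 2.80-fold with YKL-5-124 (log2 1.49 ± 0.14) and 2.00-fold with samuraciclib (1.00 ± 0.15), and its 3 groups did not overlap. Between the inhibitors it differed by 0.49 ± 0.13, just short of the fold threshold (adjusted p = 0.00965). COL5A2 rose with samuraciclib (0.87 ± 0.26, adjusted p = 0.00974) from 1.32 ± 0.00824 to 2.42 ± 0.0376 CPM (SD, n = 3), and its YKL-5-124 libraries, at 2.24, 2.59 and 1.17 CPM, overlapped both groups. COL5A3 fell with YKL-5-124 (-1.53 ± 0.44, adjusted p = 0.00786), from 1.03 ± 0.216 to 0.332 ± 0.246 CPM. COL1A1 and COL5A1 were not called, at 0.15 and 0.09 with YKL-5-124 and 0.24 and 0.09 with samuraciclib on the log2 scale.

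COL12A1 and COL9A3 belong to the collagens that decorate fibrils. COL12A1 (chr6:75084326-75206051) stood at 214, 219 and 220.3 CPM in DMSO, 157, 161 and 146 CPM with samuraciclib and 142, 139 and 134 CPM with YKL-5-124, with no overlap between groups. It fell 1.57-fold with YKL-5-124 (log2 -0.66 ± 0.046, adjusted p = 1.89e-09). With samuraciclib the log2 fold change was -0.49 ± 0.046 (adjusted p = 1.06e-07), just inside the fold threshold, and the difference between the inhibitors was -0.16 ± 0.046 (adjusted p = 0.0166), also under the fold threshold. COL9A3 (chr20:62816244-62841159) stood at 7.10, 7.35 and 6.82 CPM in DMSO, 7.35, 8.48 and 8.94 CPM with samuraciclib and 11.03, 9.68 and 11.8 CPM with YKL-5-124, which was above both other groups. It rose 1.53-fold with YKL-5-124 (0.61 ± 0.11, adjusted p = 0.000248) and differed from samuraciclib by 0.39 ± 0.11 (adjusted p = 0.0174), under the fold threshold. TCFL5, on the other strand at a mean of 14.9 CPM, covers 3.2% of the exon bases of COL9A3. COL16A1 and the type VI chains COL6A1 and COL6A2 were not called. The log2 fold change with YKL-5-124 and with samuraciclib was 0.12 and -0.01 for COL16A1, -0.45 and -0.14 for COL6A1 and 0.05 and 0.28 for COL6A2.

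Of the genes of the hemidesmosome and its attachment shown here, COL17A1 alone was called. COL17A1 (chr10:104031286-104085957), its transmembrane collagen, stood at 340.2, 339.8 and 353 CPM in DMSO, 220.1, 223 and 206 CPM with samuraciclib and 229.9, 236 and 227 CPM with YKL-5-124. All treated libraries were below all DMSO libraries. COL17A1 fell 1.49-fold with YKL-5-124 (log2 -0.58 ± 0.046, adjusted p = 1.01e-08) and 1.59-fold with samuraciclib (-0.67 ± 0.046, adjusted p = 2.66e-09), and the interval between the inhibitors was -0.0044 to 0.19. Scaled by library size alone, it was at -0.45 with YKL-5-124 and no longer called. COL7A1 (chr3:48564073-48595267), of the anchoring fibrils, stood at 171, 159.5 and 158 CPM in DMSO, 139.8, 162 and 147 CPM with samuraciclib and 171, 149 and 151 CPM with YKL-5-124, and all groups overlapped (log2 -0.05 ± 0.06 and -0.12 ± 0.061).

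Of the subunits of the hemidesmosomal laminin, LAMA3 (chr18:23689443-23956222) stood at 60.8, 62.4 and 64.8 CPM in DMSO, 52.9, 49.5 and 44.7 CPM with samuraciclib and 52.7, 53.4 and 50.99 CPM with YKL-5-124. LAMB3 (chr1:209614870-209652466) had 354, 351 and 369 CPM in DMSO, 431, 406 and 423 CPM with samuraciclib and 421, 414 and 456 CPM with YKL-5-124. The treated libraries were all lower than DMSO for LAMA3 and all higher for LAMB3. Neither was called. The log2 fold change with YKL-5-124 was -0.26 ± 0.061 for LAMA3 and 0.26 ± 0.05 for LAMB3, and with samuraciclib it was -0.35 ± 0.061 and 0.23 ± 0.05. The ratio of LAMA3 to LAMB3 per kb averaged 0.0559 in DMSO, 0.0373 with samuraciclib and 0.0390 with YKL-5-124. It differed from DMSO by -0.52 on the log2 scale with YKL-5-124 and -0.59 with samuraciclib, with no overlap in either (exact two-sided permutation test, p = 0.1, the smallest possible).

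The integrin of the hemidesmosome showed a similar divergence below the fold threshold. ITGA6 (chr2:172427354-172506282) stood at 129.7, 139 and 137 CPM in DMSO, 153, 152 and 139.9 CPM with samuraciclib and 167, 175 and 167 CPM with YKL-5-124. ITGB4 (chr17:75721328-75757818) had 547, 533 and 582 CPM in DMSO, 464, 447 and 447 CPM with samuraciclib and 430.4, 417 and 442 CPM with YKL-5-124. Every treated library was above DMSO for ITGA6 and below it for ITGB4. The log2 fold change of ITGA6 was 0.32 ± 0.048 with YKL-5-124 and 0.13 ± 0.049 with samuraciclib, and that of ITGB4 was -0.37 ± 0.048 and -0.29 ± 0.048. Neither was called. Per kb the mean ratio of ITGA6 to ITGB4 was 0.253 in DMSO, 0.339 with samuraciclib and 0.409 with YKL-5-124.

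**Figure D4:**
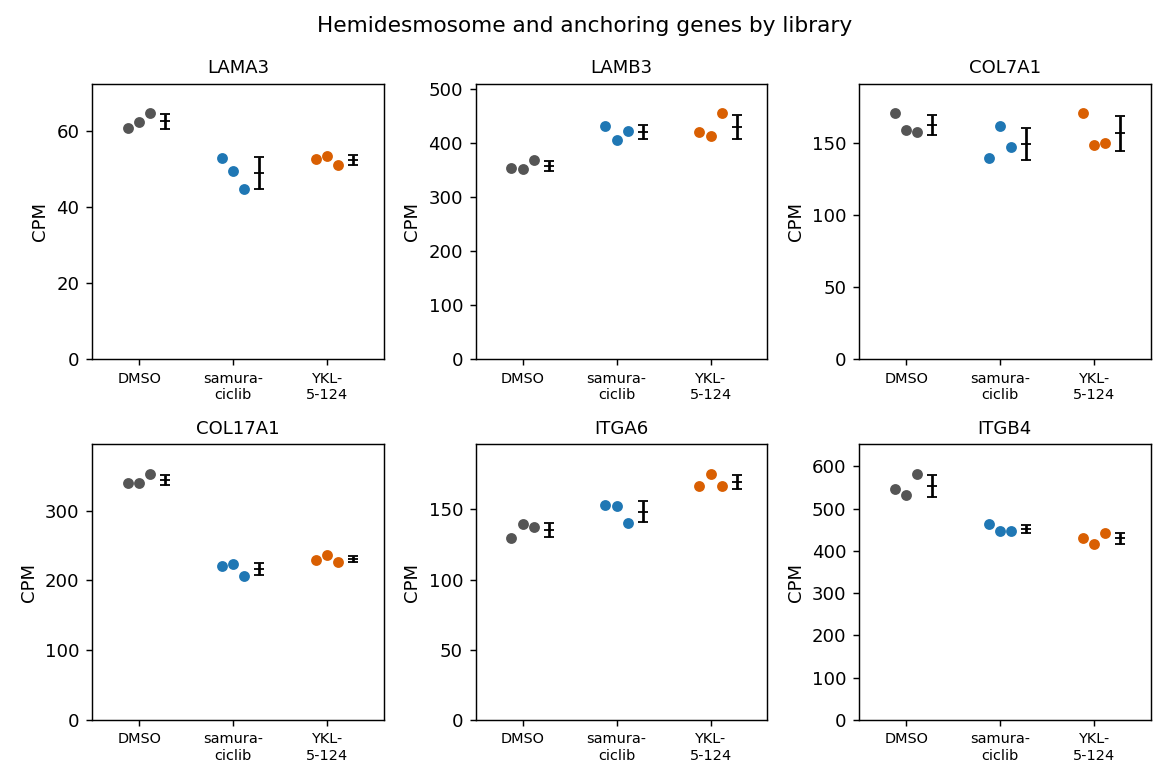
CPM of LAMA3, LAMB3, COL7A1, COL17A1, ITGA6 and ITGB4 in each library (points) with the mean and SD of each group (bars, n = 3), on axes that start at 0. COL17A1, LAMA3 and ITGB4 are lower and LAMB3 and ITGA6 higher in all 6 treated libraries than in the 3 DMSO libraries, the groups of COL7A1 overlap, and COL17A1 alone was called.

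The other laminin subunits split as well. LAMB1 (chr7:107923799-108003255), the widely used beta subunit, stood at 164, 176 and 168 CPM in DMSO, 132, 129.9 and 134 CPM with samuraciclib and 110.5, 121 and 108 CPM with YKL-5-124. The groups did not overlap, in this order. LAMB1 fell 1.498-fold with YKL-5-124 (log2 -0.58 ± 0.05, adjusted p = 2.36e-08), and with samuraciclib it was at -0.36 ± 0.049, where it was not called. The difference between the inhibitors was -0.22 ± 0.05 (adjusted p = 0.00330). Scaled by library size alone, the log2 fold change with YKL-5-124 was -0.45. DLD, on the other strand at a mean of 149.8 CPM, covers 1.61% of the exon bases of LAMB1. LAMC1, the usual partner of LAMB1, stood at 201, 206 and 206 CPM in DMSO, 272, 263 and 268 CPM with samuraciclib and 215, 215 and 212 CPM with YKL-5-124, and was not called (log2 0.07 ± 0.042 with YKL-5-124 and 0.39 ± 0.042 with samuraciclib). Its samuraciclib libraries were above both other groups, and YKL-5-124 differed from samuraciclib by -0.32 ± 0.042, under the fold threshold. LAMA5 stood at 626, 582 and 601 CPM in DMSO, 712, 729.7 and 728 CPM with samuraciclib and 891, 712 and 809.97 CPM with YKL-5-124 (log2 0.42 ± 0.063 with YKL-5-124 and 0.26 ± 0.063 with samuraciclib; not called). LAMB2 was at -0.24 and -0.33. ADRM1, on the other strand at a mean of 136.4 CPM, covers 1.71% of the exon bases of LAMA5. Without strand, reads of the parts that LAMB1 and LAMA5 share with these neighbours cannot be told apart.

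Low laminin counts carried the other calls. LAMA1, an alpha subunit of embryonic basement membranes, had 41, 29 and 63 counts in DMSO, 8, 25 and 16 with samuraciclib and 6, 10 and 9 with YKL-5-124, and in CPM all treated libraries were below DMSO. It fell 5.42-fold with YKL-5-124 (log2 -2.44 ± 0.37, adjusted p = 2.59e-05) and 2.68-fold with samuraciclib (-1.42 ± 0.33, adjusted p = 0.00175). LAMA2, the alpha subunit of muscle, was called lower with YKL-5-124 (-0.60 ± 0.21, adjusted p = 0.0226) although the groups overlapped, and the call was lost without DMSO 2 (-0.36) or YKL-5-124 2 (-0.44). LAMC3 was called lower with YKL-5-124 (-1.28 ± 0.51, adjusted p = 0.0461) on 15, 8 and 19 against 1, 12 and 5 counts, which overlap, and had an adjusted p of 0.0694 in DESeq2 and 0.0551 with the replicate number as a block. The LAMC3 call was also lost without any 1 library of DMSO 1, DMSO 3, samuraciclib 1, 2 or 3, YKL-5-124 1 or YKL-5-124 3, at adjusted p from 0.0503 to 0.172.

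Integrins that bind the RGD motif of fibronectin and of latent TGF-beta held 3 of the 4 members called between the compounds. ITGAV (chr2:186590065-186680901), the alpha subunit shared by several of them, stood at 61.7, 61.1 and 66.7 CPM in DMSO, 115, 119.6 and 112 CPM with samuraciclib and 109.7, 108 and 100.3 CPM with YKL-5-124. It rose 1.68-fold with YKL-5-124 (log2 0.75 ± 0.054, adjusted p = 2.58e-09) and 1.83-fold with samuraciclib (0.87 ± 0.054, adjusted p = 7.14e-10). The interval of the difference between the inhibitors was -0.23 to -0.02 (adjusted p = 0.0880, not called). ITGB6 (chr2:160099666-160200313), the epithelial partner of ITGAV that activates latent TGF-beta, stood at 12.5, 14.5 and 14.7 CPM in DMSO, 21.9, 19.96 and 19.7 CPM with samuraciclib and 12.7, 14.4 and 14.1 CPM with YKL-5-124. ITGB8 (chr7:20330702-20415754), another partner of ITGAV, stood at 19.0, 19.4 and 19.9 CPM in DMSO, 30.3, 31.3 and 30.6 CPM with samuraciclib and 18.5, 20.02 and 20.2 CPM with YKL-5-124. In both genes the samuraciclib libraries were above all others, and on the TMM scale DMSO and YKL-5-124 overlapped. Scaled by library size alone, ITGB6 still overlapped, but every YKL-5-124 library of ITGB8 was above every DMSO library. ITGB6 rose 1.47-fold with samuraciclib (log2 0.55 ± 0.092, adjusted p = 8.18e-05) and ITGB8 1.58-fold (0.66 ± 0.071, adjusted p = 5.95e-07). With YKL-5-124 the 95% interval was -0.22 to 0.18 for ITGB6 and -0.14 to 0.16 for ITGB8.

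ITGA5 (chr12:54395261-54419460), which with ITGB1 forms the fibronectin receptor, had the same order of groups. It stood at 36.6, 34.2 and 34.6 CPM in DMSO, 55.8, 54.1 and 52.6 CPM with samuraciclib and 37.3, 35.1 and 39.0 CPM with YKL-5-124. The samuraciclib libraries stood apart, and the DMSO and YKL-5-124 ranges overlapped on the TMM scale. Scaled by library size alone, every YKL-5-124 library of ITGA5 was above every DMSO library. ITGA5 rose 1.54-fold with samuraciclib (log2 0.63 ± 0.06, adjusted p = 1.58e-07), and the interval with YKL-5-124 was -0.05 to 0.21. Tested between the inhibitors, the log2 difference of YKL-5-124 from samuraciclib was -0.55 ± 0.06 for ITGA5 (adjusted p = 5.28e-06), -0.58 ± 0.091 for ITGB6 (0.000207) and -0.65 ± 0.07 for ITGB8 (4.88e-06). Scaled by library size alone the difference of ITGA5 was -0.48, and without DMSO 1 the rise of ITGB6 was 0.48, both just under the fold threshold. No motif of those searched was in the windows of all 3 genes. ITGB5, also a partner of ITGAV, was at -0.07 and -0.07, and ITGB3 was not tested, with 17 counts in all.

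**Figure D5:**
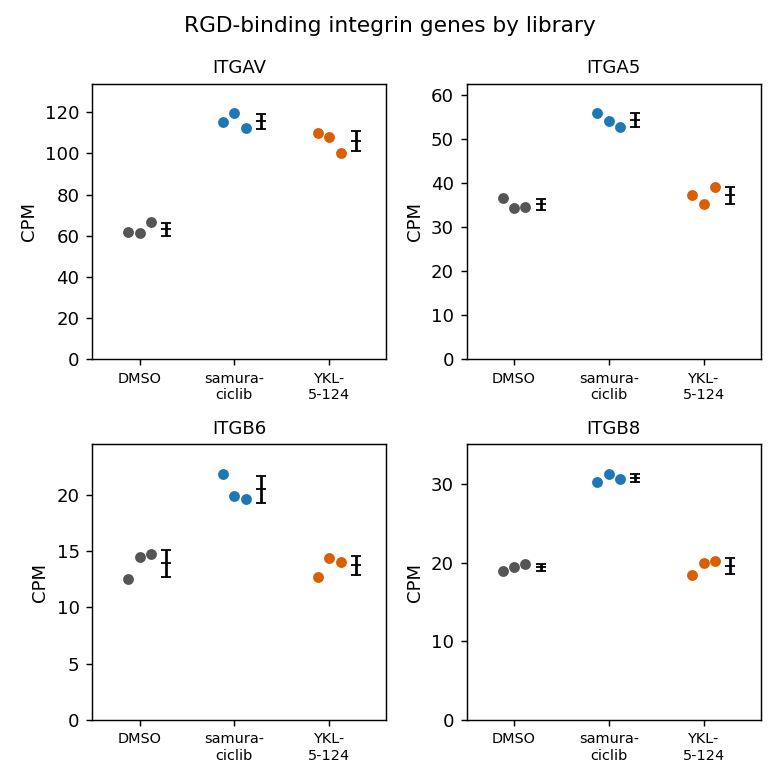
CPM of ITGAV, ITGA5, ITGB6 and ITGB8 in each library (points) with the mean and SD of each group (bars, n = 3), on axes that start at 0. ITGAV is higher with both inhibitors than in DMSO, and the other 3 genes are higher with samuraciclib than in both other groups.

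Relative to ITGAV, both partners were lowest with YKL-5-124. The ratio of ITGB6 to ITGAV per kb averaged 0.386 in DMSO, 0.311 with samuraciclib and 0.227 with YKL-5-124, and that of ITGB8 to ITGAV 0.167, 0.144 and 0.1002. Neither ratio overlapped between any pair of groups (exact two-sided permutation test, p = 0.1, the smallest possible).

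ITGB2 (chr21:44885953-44931989), the beta subunit of leukocyte integrins, was well expressed although leukocyte markers were near 0. It stood at 74.2, 74.0 and 72.4 CPM in DMSO, 49.6, 42.5 and 52.5 CPM with samuraciclib and 49.1, 51.6 and 50.99 CPM with YKL-5-124, with all treated libraries below DMSO. ITGB2 fell 1.45-fold with YKL-5-124 (log2 -0.54 ± 0.065, adjusted p = 1.89e-06) and 1.53-fold with samuraciclib (-0.61 ± 0.065, adjusted p = 5.69e-07). Scaled by library size alone it was at -0.41 with YKL-5-124. The antisense gene ITGB2-AS1, at a mean of 4.71 CPM, covers 4.15% of its exon bases. ITGA10, of the collagen-binding integrins, had 33, 27 and 39 counts in DMSO, 2, 7 and 5 with samuraciclib and 7, 7 and 5 with YKL-5-124, again with no overlap in CPM. It fell 5.36-fold with YKL-5-124 (-2.42 ± 0.37, adjusted p = 3.05e-05) and 6.97-fold with samuraciclib (-2.80 ± 0.39, adjusted p = 1.39e-05). ITGA1, in the same class, rose from 2.91 ± 0.443 CPM in DMSO to 4.77 ± 0.641 CPM with samuraciclib and 4.49 ± 0.518 CPM with YKL-5-124 (log2 0.69 and 0.61). PELO, a gene on the same strand at a mean of 15.02 CPM, stood above ITGA1 and covers 2.69% of the exon bases of ITGA1. Reads of the shared part cannot be told apart, and the part of PELO in this rise was not tested. ITGA2, the most abundant collagen-binding alpha subunit, was not called (-0.05 with YKL-5-124 and 0.12 with samuraciclib).

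Neither the common beta subunit nor the most abundant laminin-binding alpha subunit was called. ITGB1 stood at 632, 682 and 658 CPM in DMSO, 695, 711 and 666 CPM with samuraciclib and 671, 719 and 661 CPM with YKL-5-124, and the groups overlapped. Its 95% interval was -0.05 to 0.16 with YKL-5-124 and -0.03 to 0.18 with samuraciclib. ITGA3 stood at 796, 776 and 751 CPM in DMSO, 676, 631 and 657 CPM with samuraciclib and 738, 682 and 730.4 CPM with YKL-5-124, with every treated library below DMSO (log2 -0.11 ± 0.049 and -0.24 ± 0.049). Scaled by library size alone, the samuraciclib libraries of ITGA3 stayed below DMSO and those of YKL-5-124 overlapped it. ITGA11, of the collagen-binding integrins, had 5, 0 and 4 counts in DMSO, 19, 9 and 1 with samuraciclib and 7, 16 and 10 with YKL-5-124. In CPM its YKL-5-124 libraries were above DMSO and its samuraciclib libraries overlapped both. It was not called, at 1.76 ± 0.77 with YKL-5-124 (adjusted p = 0.0644) and 1.64 ± 0.78 with samuraciclib (adjusted p = 0.0982), the largest fitted rises among the members tested. ITGA7 was at 0.11 and 0.26 and ITGB7 at 0.31 and -0.88, neither of them called, and ZNF740, on the other strand, covers 42.3% of the exon bases of ITGB7. ZNF740, at a mean of 32.6 CPM, was itself higher with YKL-5-124 than with samuraciclib (log2 0.32 ± 0.073, adjusted p = 0.00393). Without strand, reads of the part that ITGB7 and ZNF740 share cannot be told apart.

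The 29 members that were not tested had 0 to 82 counts in all 9 libraries together. They were the collagen genes COL1A2, COL2A1, COL3A1, COL4A3, COL4A4, COL6A3, COL6A5, COL6A6, COL8A2, COL9A1, COL9A2, COL10A1, COL13A1, COL14A1, COL15A1, COL19A1, COL20A1, COL21A1, COL22A1, COL23A1, COL24A1, COL25A1 and COL26A1, the laminin genes LAMA4 and LAMB4, and the integrin genes ITGA4, ITGA8, ITGA9 and ITGB3. COL6A3 and ITGA8 had no count. COL11A1 and COL28A1 passed the filter at low counts and were not called, with COL11A1 at 0.88 ± 0.46 and 0.00 ± 0.51 and COL28A1 at 0.42 ± 0.26 and 0.11 ± 0.26 (YKL-5-124, then samuraciclib).

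Genes that modify and process collagen were counted as a companion list of 25 tested genes. With YKL-5-124, 6 rose and 4 fell, and with samuraciclib 5 rose and 2 fell (median log2 fold change 0.01 and 0.09). The shares were 24.0% and 16.0% with YKL-5-124 and 20.0% and 8.00% with samuraciclib, against 11.9% and 9.93% of all genes with YKL-5-124 and 8.17% and 9.55% with samuraciclib. P4HA2, an alpha subunit of collagen prolyl 4-hydroxylase, rose with both (log2 1.11 ± 0.083 with YKL-5-124 and 1.06 ± 0.083 with samuraciclib). P4HA1, another alpha subunit, rose with YKL-5-124 (0.53 ± 0.053) and was at 0.26 ± 0.054 with samuraciclib. CRTAP and P3H4, which act in the modification of collagen chains in the endoplasmic reticulum, fell with both (CRTAP -0.91 ± 0.047 and -0.53 ± 0.047, P3H4 -0.72 ± 0.064 and -0.80 ± 0.065).

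Of 17 other matrix genes tested, 4 rose and 2 fell with YKL-5-124 (23.5% and 11.8%, against 11.9% and 9.93% of all genes) and 4 rose and 1 fell with samuraciclib (23.5% and 5.88%, against 8.17% and 9.55%). FN1, the gene of fibronectin and so of a ligand of ITGA5 and ITGAV, rose by 0.69 ± 0.052 with YKL-5-124 and 0.82 ± 0.052 with samuraciclib. THBS1, a matricellular protein that can activate latent TGF-beta, rose by 0.54 ± 0.05 and 0.86 ± 0.05, and TNC, tenascin, by 0.78 ± 0.11 and 1.33 ± 0.11. TNC was lower with YKL-5-124 than with samuraciclib (-0.55 ± 0.10, adjusted p = 0.000948). FBN2, of the microfibrils, fell with YKL-5-124 (-0.57 ± 0.05) and was at -0.33 ± 0.049 with samuraciclib.

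Of 28 integrin adaptors and adhesion kinases, 4 rose and 1 fell with YKL-5-124 (14.3% and 3.57%, against 11.9% and 9.93% of all genes). With samuraciclib 4 rose (14.3%, against 8.17% of all genes) and none was called lower by edgeR or DESeq2, with 3 lower at an unadjusted p below 0.05. VCL, vinculin, rose with samuraciclib (0.62 ± 0.051) and was at 0.44 ± 0.051 with YKL-5-124. TGFB1I1, a paxillin relative, rose with both (0.58 ± 0.11 with YKL-5-124 and 1.10 ± 0.11 with samuraciclib), and PARVA, a parvin, fell with YKL-5-124 (-0.61 ± 0.06) and was at -0.11 ± 0.059 with samuraciclib. FERMT2, a kindlin, was not called (0.34 and 0.48). Of 18 non-integrin receptors and tetraspanins, 3 rose and 3 fell with YKL-5-124 (16.7% each way, against 11.9% and 9.93% of all genes) and 2 rose and 2 fell with samuraciclib (11.1% each way, against 8.17% and 9.55%). RPSA, the gene of a ribosomal protein also known as a laminin receptor, fell with both (-0.94 ± 0.052 and -0.61 ± 0.051), and CD44, the hyaluronan receptor, fell with YKL-5-124 (-0.81 ± 0.047) and was at -0.45 ± 0.047 with samuraciclib. BCAM, a receptor of LAMA5 laminins, fell with YKL-5-124 (-0.60 ± 0.059) and was at -0.49 ± 0.059 with samuraciclib, and the tetraspanin gene CD81 rose with samuraciclib (0.67 ± 0.049) and was at 0.47 ± 0.049 with YKL-5-124. Of the letter-named integrin alpha genes 3 were tested, and none was called by edgeR or DESeq2, with 1 lower at an unadjusted p below 0.05 with samuraciclib.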

How the data were processed

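FaDu cells received DMSO, samuraciclib or YKL-5-124 (3 libraries each). Per the labels and the study's methods, poly(A) RNA was sequenced as read pairs, HISAT2 aligned them to GRCh38, and featureCounts 2.0.6 assigned them to genes; the GENCODE release and the strand setting are not given in the sources used here. The deposited values are whole-number counts per gene, not normalized, so reads shared by overlapping genes may be lost or assigned to either. Of 58929 genes, 16065 passed filterByExpr on the 3 groups. Counts were scaled by TMM, and CPM use these library sizes; CPM per kb divide by the table's gene length.

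All 9 libraries entered 1 fit of edgeR 4.0.16 (quasi-likelihood F-test, two-sided, no covariates), with Benjamini-Hochberg adjustment over all genes tested, after the script was tested on simulated data. Genes were called at an adjusted p below 0.05 and a log2 fold change beyond 0.5. The SE is the size of the log2 fold change divided by the square root of F. Ratios of 2 genes were compared by an exact two-sided permutation test, which cannot go below p = 0.1 here. In all, 21 such tests were made and none could pass 0.05, before or after adjustment. Where nothing else is said, p-values weigh a difference against the spread between cultures within groups. That spread was estimated over all 9 libraries, with information shared across genes.

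Every member called in a comparison with a mean of at least 10 CPM in any group was given by library, as were the hemidesmosome and type IV collagen genes; others may be named, with their log2 fold change where tested. 1 member that was tested is counted but not reported here by name. Companion lists name up to 4 genes with the smallest adjusted p. Members and lists were chosen with earlier results of these data known. Promoters came from RefSeq, GRCh38.p14, and exon overlaps from GENCODE v44. Same-numbered libraries of different groups deviated together with correlations of -0.06 to 0.17, so the numbers were not taken to pair the samples. The 3 libraries low in 7SL RNA, 1 in each group, deviated together (0.146 to 0.173), and the counts without them are among the alternatives. Within groups, no 2 libraries agreed within sampling noise. Alternatives covered scaling, filter, tool (DESeq2 1.42.0), thresholds, block, genes and libraries. The software was R 4.3.3 with limma 3.58.1, and Python 3.11.15 with scipy 1.17.1, pandas 2.3.3, matplotlib 3.10.9 and numpy 2.4.6.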

Additional observations from a re-analysis of the deposited data

How the results depend on the processing

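The counts of members called were recomputed under each alternative. In the order higher and lower with YKL-5-124, higher and lower with samuraciclib, and higher and lower with YKL-5-124 against samuraciclib, the reported counts were 6, 12, 9, 5, 0 and 4. Not every count is given for each alternative, and a count left out can differ from the reported one. Scaled by library size alone, which moved the median of all genes with YKL-5-124 to 0.14 (log2), 7 were lower with YKL-5-124 and 2 were higher with YKL-5-124 than with samuraciclib. With a mean count of at least 50, 3 were lower with samuraciclib, since ITGA10 and LAMA1 were then not tested, and 1 (COL11A2) was higher with YKL-5-124 than with samuraciclib. With no fold threshold, 11 were higher with YKL-5-124, 16 higher and 12 lower with samuraciclib, and 3 higher and 11 lower between the inhibitors. With a log2 fold change beyond 1, 3 were higher and 6 lower with YKL-5-124, 1 higher and 3 lower with samuraciclib, and 0 lower between the inhibitors. Tested against the fold threshold itself (glmTreat), 6 were lower with YKL-5-124, 4 higher with samuraciclib and 0 lower between the inhibitors. In the fit of the 2 groups alone, and in that of protein-coding genes alone, 1 member (ITGB7) was higher with YKL-5-124 than with samuraciclib, and without the 3 libraries low in 7SL RNA, where the 6 counts were 6, 12, 9, 7, 1 and 3, COL11A2 was.

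Leaving out 1 library at a time gave 6 to 7, 11 to 12, 8 to 10, 5 to 6, 0 to 1 and 4 to 5 in the order above. Same-numbered samples share only a number, and with the replicate number as a block the counts were 6, 11, 9, 5, 0 and 4, with LAMC3 lost. Of 36 calls, 8 fell short under some alternative that tested the gene, at the reported or a lower threshold. They were COL17A1, ITGB2, LAMB1, LAMA2 and LAMC3 with YKL-5-124, ITGB6 with samuraciclib, and COL4A6 and ITGA5 between the inhibitors. None reversed, and the cause was not tested. With a mean count of at least 50, ITGA10, LAMA1, COL5A2 and COL5A3 were not tested, and calls lost in this way are not among the 8. LAMC3 had 88 counts in all libraries and LAMA2 603, which with the spread between cultures sets their precision (SE 0.51 and 0.21 with YKL-5-124).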

Other observations

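The table holds 12 antisense or divergent genes named after a member, of which 4 passed the filter on low counts. These genes were looked at after the values of the members were known. LAMA5-AS1, antisense to LAMA5, stood at 0.509 CPM in DMSO, 0.868 CPM with samuraciclib and 1.25 CPM with YKL-5-124, on 166 counts in all. It was called higher with YKL-5-124 (log2 1.35 ± 0.37, SE; adjusted p = 0.00523, edgeR) and not with samuraciclib (0.84 ± 0.39; 0.0875), and the difference between the inhibitors was 0.51 ± 0.33 (0.285). ITGB2-AS1 was called lower with samuraciclib (-0.62 ± 0.14; adjusted p = 0.00115), as was ITGB2, and was at -0.27 ± 0.13 with YKL-5-124. ITGB1-DT, divergent from ITGB1, and LAMC1-AS1 were not called. Since the strand setting of the counting is not known, reads of such genes and of the members they overlap cannot be told apart.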
